A study of Mus musculus with 12 samples.

Results

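Regulators of G protein signalling (RGS proteins) were followed through the kidneys of mice with and without the AT1A angiotensin receptor. Of the 18193 genes with a probe set of 1 symbol on the Affymetrix array, 8 members were taken by name, namely Rgs1, Rgs2, Rgs3, Rgs4, Rgs5, Rgs10, Rgs14 and Rgs16. All of their probe sets were used, 21 of the 45037 tested, with 4 each for Rgs2, Rgs3 and Rgs5, 3 each for Rgs4 and Rgs16 and 1 each for Rgs1, Rgs10 and Rgs14. No filter on low values was applied, so that every member is reported.

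The 4 groups held 3 arrays each, 12 in all, and each array carried total kidney RNA of 1 mouse. Wild-type (WT) and AGTR1A-KO (KO) mice were males of the same F1 cross, C57BL6 X 129/SvEv, and were 2.5 months old. Baseline mice of both genotypes were kept on the NS diet. The ANG II groups had the same diet and received angiotensin II at 1 ug/kg/min for 2 days. No vehicle infusion is named for the baseline mice, so that infusion itself and angiotensin II cannot be told apart. The deleted stretch of the gene in the KO mice is not named in the labels.

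A receptor such as AT1 activates a G protein by loading its alpha subunit with GTP, and RGS proteins end the signal by speeding the hydrolysis of that GTP. Alpha subunits of the Gq class drive phospholipase C beta, calcium release and smooth muscle contraction, whereas those of the Gi class inhibit adenylyl cyclase. In the kidney RGS proteins are known as brakes on vasoconstrictor receptors of arterioles, mesangial cells and pericytes, and several of them are themselves induced by receptor signalling.

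In the RefSeq gene order of GRCm38.p6, 5 of the 8 genes are on chromosome 1. Rgs5 and Rgs4 are direct neighbours there, with 0 protein-coding genes between them, and only Rgs13 separates Rgs2 from Rgs1. Rgs16 lies next to Rgs8 on the same chromosome. Rgs3 is on chromosome 4, Rgs10 on chromosome 7 and Rgs14 on chromosome 13, which also holds the targeted Agtr1a, 176 protein-coding genes away.

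Promoter sequences from RefSeq (GRCm38.p6) were on hand for 6 of the 8 genes, and Rgs1 and Rgs14 had no entry. The 250 bases before the start are shown for Rgs5, Rgs4, Rgs2 and Rgs10, the 4 genes with a probe set called between untreated KO and untreated WT kidneys below. Sequences run 5′ to 3′ on the strand of the gene, with capitals marking CCAAT or its reverse complement ATTGG, which the window of Rgs10 does not hold.
Rgs5, chr1:169655251-169655500, plus strand: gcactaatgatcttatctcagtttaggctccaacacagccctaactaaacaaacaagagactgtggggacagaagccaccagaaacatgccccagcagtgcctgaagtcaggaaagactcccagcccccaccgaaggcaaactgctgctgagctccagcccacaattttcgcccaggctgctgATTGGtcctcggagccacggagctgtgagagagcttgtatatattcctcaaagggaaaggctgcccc
Rgs4, chr1:169747643-169747892, minus strand: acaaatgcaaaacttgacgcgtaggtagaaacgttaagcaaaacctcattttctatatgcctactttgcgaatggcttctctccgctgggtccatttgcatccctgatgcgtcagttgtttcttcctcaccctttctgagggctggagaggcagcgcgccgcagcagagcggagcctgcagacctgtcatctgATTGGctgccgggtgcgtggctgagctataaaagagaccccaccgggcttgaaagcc
Rgs2, chr1:144004150-144004399, minus strand: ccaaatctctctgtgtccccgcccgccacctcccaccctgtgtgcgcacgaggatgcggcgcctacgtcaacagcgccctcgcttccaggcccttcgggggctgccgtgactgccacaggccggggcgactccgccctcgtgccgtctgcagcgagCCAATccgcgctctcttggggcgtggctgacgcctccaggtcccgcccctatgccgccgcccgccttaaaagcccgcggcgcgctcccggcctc
Rgs10, chr7:128418173-128418422, minus strand: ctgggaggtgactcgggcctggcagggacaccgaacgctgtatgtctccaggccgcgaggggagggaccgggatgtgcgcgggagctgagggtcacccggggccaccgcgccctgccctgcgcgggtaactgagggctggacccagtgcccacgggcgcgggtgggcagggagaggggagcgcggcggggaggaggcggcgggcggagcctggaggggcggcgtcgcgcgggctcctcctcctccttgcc

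A CCAAT box was found in Rgs2, Rgs4, Rgs5 and Rgs16, that is in 4 of the 6 genes, and in 33.8% of the 32851 promoter windows of the same length. It began 67 bases before the start in Rgs5, 57 in Rgs4, 94 in Rgs2 and 68 in Rgs16. TGACG, the core of the cyclic AMP response element, was found in Rgs2 and Rgs4 and in 17.8% of all windows. The whole element TGACGTCA, which contains that core, was found in 0 members and in 1.55% of windows. TATAAA occurred in Rgs3 and Rgs4 (12.4% of windows), and GGGCGG in Rgs2, Rgs3, Rgs10 and Rgs16 (32.7%). TGANTCA (6.75%) and the CArG box (1.47%) had no match in the members. Both strands were searched for each motif, and a match describes letters, not binding. The windows of Rgs10 and Rgs2 were rich in G and C, at 76.4% and 72.4%, against 53.6% in both Rgs5 and Rgs4 and a median of 52.4% over all windows.

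Each deposited value is the ratio of an array to the median of that probe set over the 12 arrays. A ratio of 1 is therefore the middle of these kidneys, and levels of different genes cannot be compared. Kidney identity could not be checked by level for the same reason. Log2 changes carry the moderated standard error of 1 limma fit to all arrays, and calls were made where the p, adjusted by Benjamini and Hochberg over the 45037 probe sets, was under 0.05. The single probe set of Agtr1a had ratios of 1.36 to 1.40 in WT baseline kidneys and of 0.917 to 1.05 in the other 9 arrays, so it separated the genotypes at baseline (log2 change -0.49 ± 0.08, adjusted p = 0.00306) but not under ANG II (-0.0035 ± 0.0799, adjusted p = 0.98). WT ANG II arrays spread most, with an SD of log2 ratios over probe sets of 0.268 to 0.342 against 0.164 to 0.262 in the other groups, and their 3' minus 5' log2 value of the Actb control was 0.0747 to 0.150 against -0.0517 to 0.0345. For Gapdh that value was -0.0601 to 0.0584 in WT ANG II arrays and -0.0530 to 0.0316 elsewhere. The part of these differences in the results was not tested.

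Untreated KO kidneys stood out for 4 of the 8 genes. Rgs5, Rgs10, Rgs4 and Rgs2 were higher there than in untreated WT kidneys, 1.48-fold to 2.04-fold in the probe sets called, and the same probe sets were lower in infused than in untreated KO kidneys. In 9 of the 21 probe sets all 3 KO baseline arrays lay above each of the other 9 arrays, a pattern shown by 5.95% of all probe sets. These 9 were all 4 of Rgs5, 3 of Rgs2, 1 of Rgs4 and that of Rgs10. In 0 of the 21 did the KO baseline arrays lie below all others, against 5.9% of all probe sets.

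**Figure D1:**
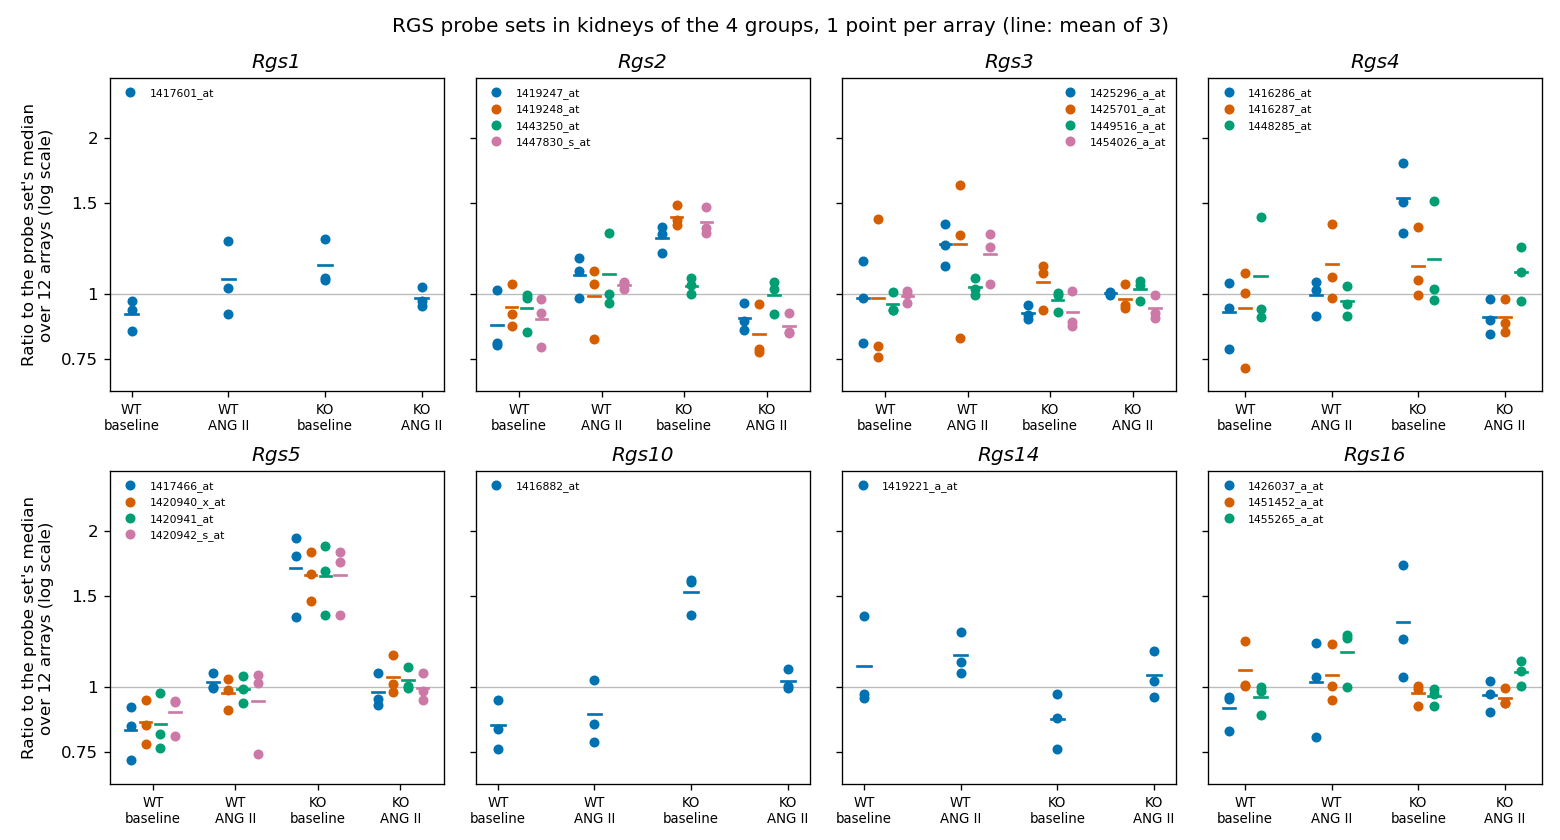
Ratio of each RGS probe set to its median over the 12 arrays (vertical, log scale) in the 4 groups (horizontal), with 1 point per array, a line at the mean of 3 and a colour per probe set. The KO baseline points of Rgs5 lie between 1.36 and 1.94 and those of Rgs10 between 1.38 and 1.61, above every other array, while those of Rgs1, Rgs3, Rgs14 and Rgs16 overlap other groups.

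Rgs5 encodes a small RGS protein that acts on Gq and Gi and is a familiar marker of pericytes and arteriolar smooth muscle. Its plain probe set 1417466_at had ratios of 0.842, 0.914 and 0.725 in the WT baseline kidneys and of 1.78, 1.94 and 1.36 in the KO baseline kidneys. Under ANG II they were 1.06, 1.00 and 0.998 in WT and 1.06, 0.947 and 0.925 in KO. The KO baseline arrays were thus high, the WT baseline arrays were the 3 lowest, and the infused groups overlapped each other between them. Group means were 0.827 ± 0.095 (SD, n = 3) in WT baseline, 0.978 ± 0.074 in KO ANG II, 1.02 ± 0.04 in WT ANG II and 1.70 ± 0.30 in KO baseline.

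The other probe sets of Rgs5 gave the same order at its top. KO baseline ratios were 1.82, 1.65 and 1.47 for 1420940_x_at, 1.87, 1.67 and 1.38 for 1420941_at, and 1.74, 1.82 and 1.38 for 1420942_s_at. Among the other 9 arrays the highest ratio of these 3 probe sets was 1.15. KO baseline replicate 3 was the lowest of its group in each of the 4 probe sets.

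Rgs10 (1416882_at), an RGS protein that acts on Gi subunits and is abundant in macrophages, microglia and lymphocytes, had ratios of 1.61, 1.59 and 1.38 in the KO baseline kidneys. The WT baseline ratios were 0.829, 0.944 and 0.759, those of WT ANG II 0.786, 1.03 and 0.851, and those of KO ANG II 0.996, 1.00 and 1.09. Only the untreated KO group stood clear of the others, since the ranges of WT ANG II and KO ANG II overlapped. Group means were 0.844 ± 0.093 (SD, n = 3), 0.889 ± 0.127, 1.53 ± 0.13 and 1.03 ± 0.05 in WT baseline, WT ANG II, KO baseline and KO ANG II.

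Rgs2 prefers Gq among its targets, and mice that lack it are known for high blood pressure and prolonged responses to angiotensin II. Probe set 1419247_at read 1.02, 0.804 and 0.799 in WT baseline, 1.11, 1.17 and 0.983 in WT ANG II, 1.35, 1.30 and 1.20 in KO baseline and 0.853, 0.962 and 0.886 in KO ANG II. The untreated KO arrays were again the 3 highest, although the gap to the highest WT ANG II array (1.17 against 1.20) was small. For 1447830_s_at the KO baseline ratios were 1.47, 1.34 and 1.31, and the other 9 arrays reached 1.05 at most. For 1419248_at they were 1.48, 1.39 and 1.36, against at most 1.11. The remaining probe set, 1443250_at, did not share this order: KO baseline ratios of 0.999, 1.07 and 1.04 lay within those of WT ANG II (0.962 to 1.31).

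Rgs4, the chromosomal neighbour of Rgs5 and like it a small inhibitor of Gq and Gi signals in smooth muscle and neurons, was split between its probe sets. Probe set 1416286_at had KO baseline ratios of 1.787, 1.502 and 1.310 and at most 1.05 in the other arrays. In 1416287_at the KO baseline ratios were 1.35, 1.06 and 0.995, and in 1448285_at 1.51, 1.02 and 0.976, with WT baseline reaching 1.10 and 1.41. In both of the latter, KO baseline replicate 1 was high and the other two arrays of its group lay among the remaining groups.

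Untreated KO kidneys were compared with untreated WT kidneys to ask what loss of the receptor does to these brakes before any infusion. Of the 21 probe sets 9 were called higher in KO (42.9%), against 4.87% of all probe sets, and 0 lower, against 1.65%. The 9 were probe sets of 4 genes. Members were chosen with earlier results of these data known, so this share and those below are descriptions. The median log2 change of the 21 was 0.31, and over all probe sets it was -0.03. Rgs5 was 2.04-fold higher by 1417466_at (limma, adjusted p = 0.000555, log2 change 1.03 ± 0.12 with 3 arrays a group), and 1.92-fold, 1.92-fold and 1.83-fold by the remaining 3. Rgs10 was 1.81-fold higher (0.86 ± 0.11, adjusted p = 0.000910). Rgs4 was 1.65-fold higher by 1416286_at (0.73 ± 0.13, adjusted p = 0.00484), whereas 1416287_at (0.28 ± 0.16) and 1448285_at (0.11 ± 0.18) were not called, and the mean of its 3 probe sets was not called either (0.37 ± 0.13, adjusted p = 0.0908).

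Rgs2 was higher in KO by 1419247_at (1.48-fold), 1447830_s_at (1.54-fold) and 1419248_at (log2 change 0.58 ± 0.12), of which the second had the smallest p (0.62 ± 0.09, adjusted p = 0.00153, limma). The call of 1419248_at ended without WT baseline replicate 3 (adjusted p = 0.0653). Rgs1 (1417601_at), best known from lymphocytes, had ratios of 1.28, 1.07 and 1.06 in KO baseline and of 0.968, 0.931 and 0.850 in WT baseline. These did not overlap each other, but WT ANG II reached from 0.914 to 1.27. It had a log2 change of 0.31 ± 0.12 (adjusted p = 0.132) and was not called. Of Rgs16, a Gi and Gq inhibitor that is induced in many tissues, 1426037_a_at had 0.52 ± 0.17 (adjusted p = 0.0826), with KO baseline ratios of 1.24, 1.72 and 1.05 that overlapped those of WT ANG II. Its call was gained with quantile normalization (adjusted p = 0.0428), with array weights (0.0418) and without KO baseline replicate 3 (0.0382). The other Rgs16 probe sets had -0.14 ± 0.11 (1451452_a_at) and 0.01 ± 0.10 (1455265_a_at).

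Rgs14, an RGS protein that also binds Gi subunits and Ras and Rap proteins, had a value below 0 in its single probe set, 1419221_a_at (-0.33 ± 0.14, adjusted p = 0.185). Its KO baseline ratios were 0.970, 0.759 and 0.872 and those of WT baseline 0.955, 0.972 and 1.37, so the groups overlapped. Rgs3, which exists in long and short forms and brakes Gq and Gi, had values between -0.11 and 0.16 in its 4 probe sets, and none was called. Probe set 1425701_a_at of Rgs3 spread most within WT, from 0.758 to 1.39 at baseline and from 0.825 to 1.62 under ANG II, whereas 1449516_a_at stayed between 0.925 and 1.07 in all 12 arrays.

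**Figure D2:**
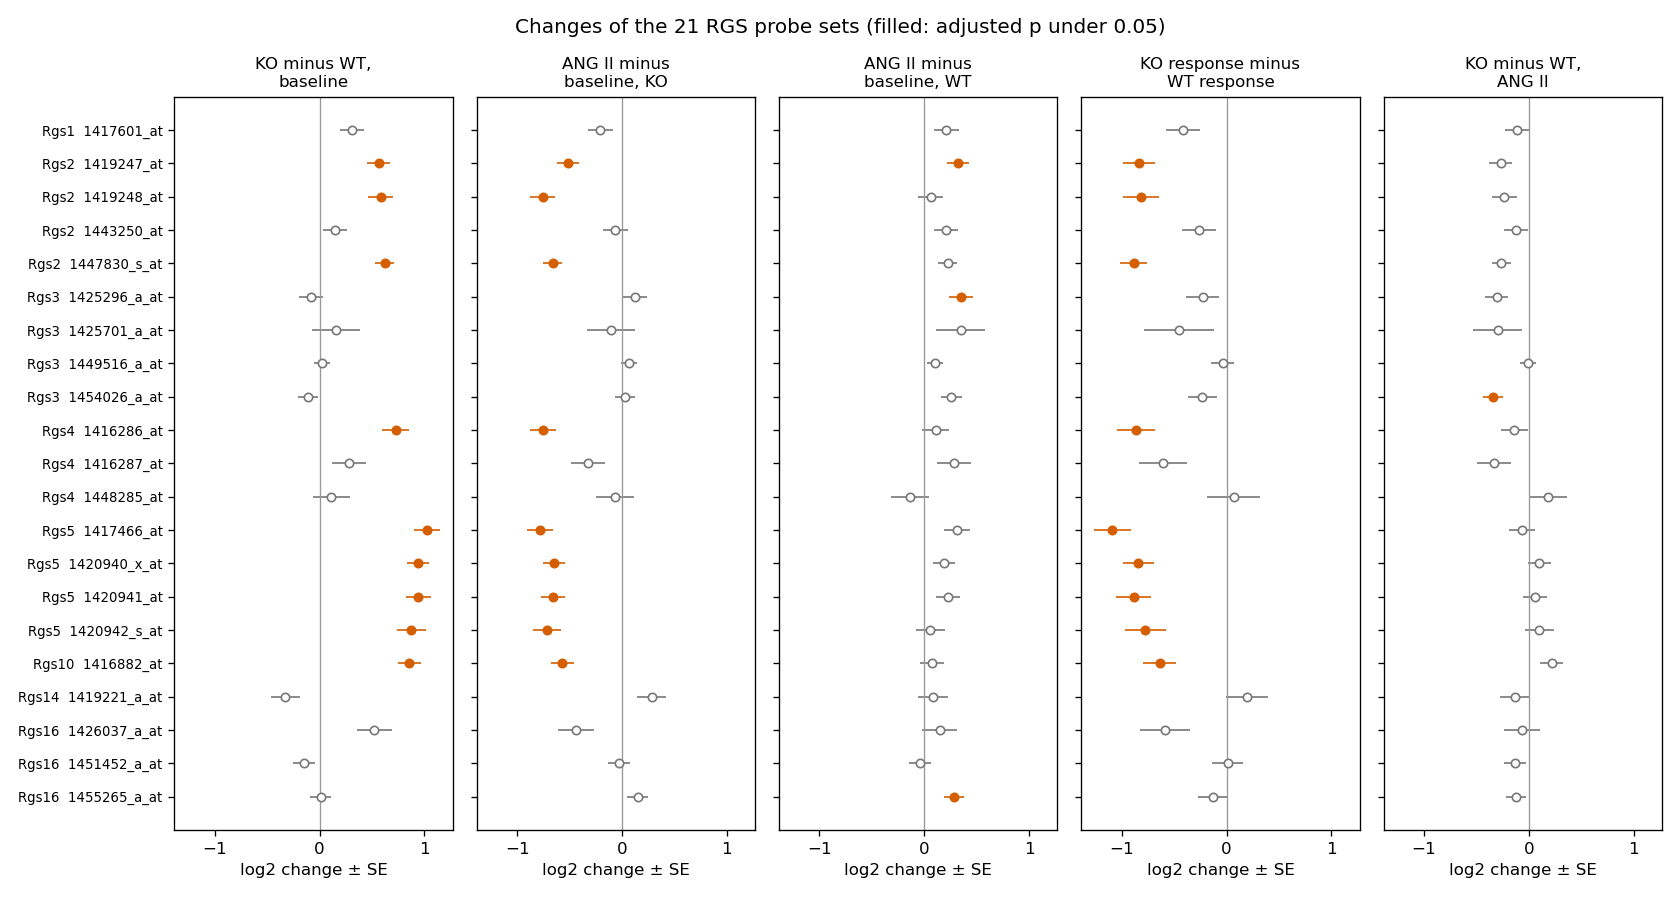
Log2 change with its moderated standard error (horizontal) for each of the 21 RGS probe sets (vertical) in 5 comparisons, filled where the adjusted p was under 0.05. The 9 filled points at right of 0 in the baseline comparison are the same probe sets as the 9 at left of 0 in the KO response and in the difference of responses, while 3 points are filled in the WT response and 1 under ANG II.

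In KO mice the infusion asked which changes occur without the main receptor. Here 9 of the 21 probe sets were called lower (42.9%, against 6.31% of all probe sets) and 0 higher (against 3.6%), with a median log2 change of -0.32 for the 21 and 0.05 for all. The 9 were those of Rgs5, Rgs10, Rgs2 and Rgs4 already described. The KO baseline arrays enter both this comparison and the one above, so the values do not stand independently of each other.

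Rgs5 fell by 0.78 ± 0.12 on the log2 scale in infused KO kidneys by 1417466_at (adjusted p = 0.00190, limma), a 1.72-fold lower ratio, and fell by 0.65 to 0.72 in its other probe sets. Rgs2 fell by 0.76 ± 0.12 by 1419248_at, by 0.66 ± 0.09 by 1447830_s_at and by 0.51 ± 0.11 by 1419247_at (adjusted p = 0.00197, 0.000657 and 0.00924). Probe set 1443250_at of Rgs2 had -0.06 ± 0.12. Rgs4 fell by 0.75 ± 0.13 by 1416286_at (adjusted p = 0.00263), but the mean over its probe sets was not called (-0.38 ± 0.13, adjusted p = 0.0657). Rgs10 fell by 0.57 ± 0.11 (adjusted p = 0.00713).

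The remaining members were not called in the KO response. Rgs16 1426037_a_at had -0.44 ± 0.17 (adjusted p = 0.114, limma), Rgs14 0.28 ± 0.14 (adjusted p = 0.209) and Rgs1 -0.21 ± 0.12 (adjusted p = 0.270). The other probe sets of Rgs16 had -0.03 ± 0.11 and 0.15 ± 0.10, and those of Rgs4 -0.32 ± 0.16 and -0.06 ± 0.18. For Rgs3 the 4 values ran from -0.10 to 0.12. With each array left out in turn, all 9 calls of the KO response were kept.

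In WT kidneys, where the receptor was present, fewer of these probe sets were called. Of the 21 probe sets 3 were called higher (14.3%, against 10.9% of all probe sets) and 0 lower (against 13.3%), which puts the share of rises close to the background. The median log2 change was 0.20 for the 21 and 0.05 for all probe sets.

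The 3 calls were small. Rgs3 1425296_a_at rose by 0.35 ± 0.11 (adjusted p = 0.0382, limma), from ratios of 1.16, 0.807 and 0.984 at baseline to 1.37, 1.24 and 1.13 under ANG II, and the 2 ranges overlapped at WT baseline replicate 1. Rgs2 1419247_at rose by 0.32 ± 0.11 (adjusted p = 0.0424), and its baseline and infused ranges overlapped at the same array. Rgs16 1455265_a_at rose by 0.28 ± 0.10 (adjusted p = 0.04996), from 0.885, 0.999 and 0.984 to 1.00, 1.26 and 1.24, without overlap.

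None of these 3 calls held under every alternative. The count was 0 without WT ANG II replicate 2, WT baseline replicate 2 or WT baseline replicate 3, and 1 without KO ANG II replicate 3, KO baseline replicate 1 or KO baseline replicate 2. It was also 0 with quantile normalization and with only the WT arrays in the fit, and 1 with arrays centred on a common median. With the replicate number as a block it was 4, since Rgs5 1417466_at (0.31 ± 0.12, adjusted p = 0.0830 without the block) then passed at an adjusted p of 0.0447. As means over probe sets, Rgs2 rose by 0.20 ± 0.07 (adjusted p = 0.0399) and Rgs3 by 0.27 ± 0.09 (adjusted p = 0.0480), that is 2 of the 8 genes where 26.5% of the 18193 genes were called. Rgs10, Rgs14 and Rgs1 had 0.07 ± 0.11, 0.09 ± 0.14 and 0.21 ± 0.12 and were not called. Rgs4 had 0.11 ± 0.13, 0.29 ± 0.16 and -0.13 ± 0.18 in its 3 probe sets. The probe sets not yet given had 0.06 to 0.23 for Rgs5, 0.06 to 0.22 for Rgs2, 0.11 to 0.35 for Rgs3 and -0.04 to 0.15 for Rgs16.

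The difference of the responses asked whether the infusion acted otherwise on these genes without the receptor. It was called for 9 of the 21 probe sets, lower in KO in each (42.9%, against 4.08% of all probe sets), while 0 were higher (against 5.7%). The median of the 21 was -0.59, against -0.01 over all. Rgs5 1417466_at had the largest difference among the 21, at -1.09 ± 0.18 (adjusted p = 0.00204, limma), followed by Rgs5 1420941_at and Rgs2 1447830_s_at, both at -0.89 (SE 0.17 and 0.13). Rgs4 1416286_at differed by -0.86 ± 0.18 (adjusted p = 0.00907) and Rgs10 by -0.64 ± 0.16 (adjusted p = 0.0232). The count ran from 7 to 10 when single arrays were left out. The call of Rgs10 ended without KO baseline replicate 1 or 2 or WT baseline replicate 1 or 3 (adjusted p = 0.0514 to 0.0612), and that of Rgs5 1420942_s_at without KO ANG II replicate 3, WT ANG II replicate 2, KO baseline replicate 1 or 2 or WT baseline replicate 3 (adjusted p = 0.0562 to 0.0618). As a mean over probe sets the difference of Rgs4 was not called (-0.47 ± 0.18, adjusted p = 0.110). Averaged in this way, Rgs2, Rgs5 and Rgs10 were called in the difference, in the KO response and at baseline, where 13%, 12.8% and 8.07% of all genes were.

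The other members were not called in the difference. Rgs1 had -0.42 ± 0.16 (adjusted p = 0.129, limma) and Rgs14 0.20 ± 0.20. Rgs3 ran from -0.45 to -0.03 and Rgs16 from -0.59 to 0.01 over their probe sets. The remaining probe set of Rgs2 had -0.27 ± 0.16, and those of Rgs4 had -0.61 ± 0.23 and 0.07 ± 0.25.

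**Figure D3:**
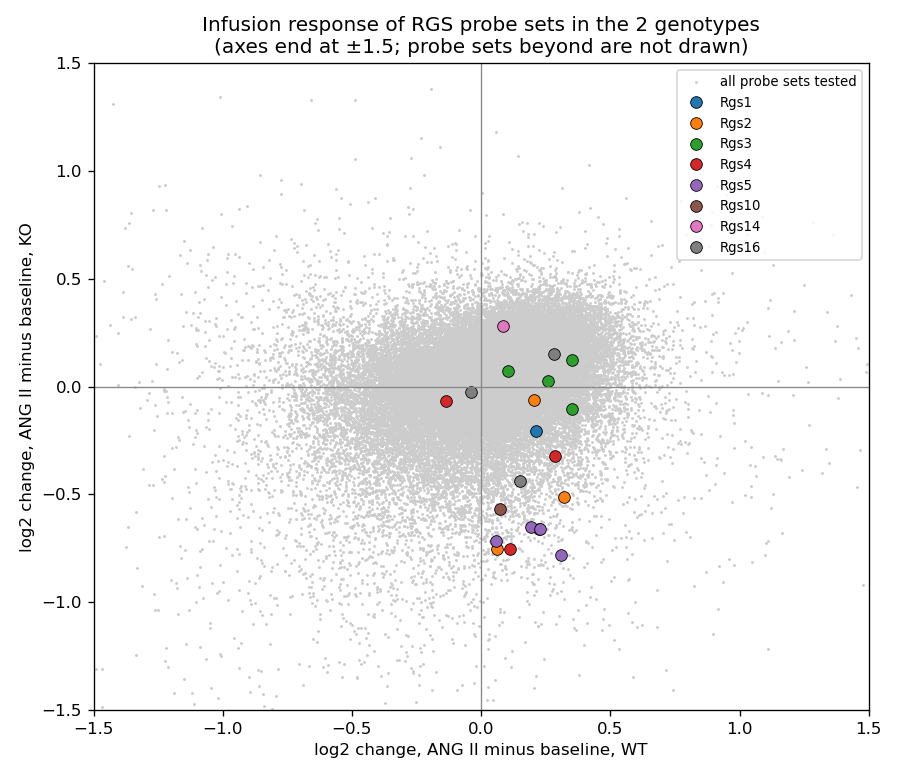
Log2 change with ANG II in WT (horizontal) and in KO kidneys (vertical), with the tested probe sets in grey and the 21 RGS probe sets coloured by gene. Grey probe sets beyond the ends of the axes are not drawn. The 4 probe sets of Rgs5 lie between 0.06 and 0.31 in WT and between -0.78 and -0.65 in KO, below the horizontal line and right of the vertical one, whereas the 4 of Rgs3 lie near 0 in KO.

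Infused KO and infused WT kidneys differed little in these genes. One member was called, Rgs3 1454026_a_at, which was lower in KO (-0.34 ± 0.10, adjusted p = 0.0251, limma). That made 1 of 21 lower (4.76%, against 8.17% of all probe sets) and 0 higher (against 11.7%), with a median of -0.12 for the 21 and -0.04 for all. At an unadjusted p under 0.05 the 21 held 4 probe sets here (against 35.5% of all probe sets), 6 in the WT response (38.7%), 10 in the KO response (27.4%), 12 in the baseline comparison (22.4%) and 12 in the difference (24.3%). The called probe set of Rgs3 did not overlap between the infused groups. Its ratios were 1.05, 1.31 and 1.23 in WT ANG II and 0.898, 0.921 and 0.998 in KO ANG II. The call ended with quantile normalization (adjusted p = 0.0800), with only these 2 groups (0.0716), without KO ANG II replicate 1 or 2 (0.0877 and 0.0566) and without WT ANG II replicate 2 or 3 (0.0907 and 0.0755). The count was 3 without WT baseline replicate 1 or without WT baseline replicate 2, when Rgs2 1447830_s_at and Rgs3 1425296_a_at passed as well.

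For Rgs5 the infused genotypes differed by -0.06 ± 0.12 by 1417466_at, with a 95% interval of -0.33 to 0.20, and by 0.06 to 0.10 in the other probe sets. Rgs10 differed by 0.22 ± 0.11 (95% interval -0.02 to 0.46), and Rgs4 1416286_at by -0.14 ± 0.13 (-0.41 to 0.13). The baseline differences of the same probe sets were 1.03 ± 0.12, 0.86 ± 0.11 and 0.73 ± 0.13. Baseline and infused differences are compared by the difference of responses given above. There the call of Rgs10 ended without some single arrays, and the mean of Rgs4 over its probe sets was not called. For Rgs2 all 4 values between the infused genotypes were negative, from -0.27 to -0.12, with none called singly. The mean over its probe sets was called lower in KO (-0.22 ± 0.07, limma, adjusted p = 0.0283), 1 of the 8 genes where 25.6% of all genes were called. Rgs1 had -0.11 ± 0.12 and Rgs14 -0.13 ± 0.14. Rgs16 ran from -0.13 to -0.06, the other probe sets of Rgs3 from -0.31 to -0.01, and those of Rgs4 had -0.33 ± 0.16 and 0.18 ± 0.18.

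Other genes of the family were counted in the same way. Of 15 further RGS and RGS-binding genes 13 were measured, with 25 probe sets. In untreated KO against WT kidneys 2 of the 25 were higher and 1 was lower, with a median of -0.09, where 4.87% and 1.65% of all probe sets were called. In the KO response 2 rose and 1 fell, where 3.6% and 6.31% of all did. At these counts 1 probe set is a large share of the list, so nothing is read from them. Rgs19, an inhibitor of Gi, was higher in untreated KO by 1434940_x_at (0.61 ± 0.14, adjusted p = 0.0192, limma) and fell by 0.63 ± 0.14 with the infusion, but it also fell by 0.53 ± 0.14 in WT. The second probe set of Rgs19 had 0.46 ± 0.16, -0.46 ± 0.16 and -0.22 ± 0.16 in these comparisons and was not called. Rgs12, a large relative of Rgs14, moved the other way by 1 of its 3 probe sets, 1453129_a_at, at -0.43 ± 0.08 in untreated KO (adjusted p = 0.00502) and 0.28 ± 0.08 in the KO response. Rgs11, known best from retina and brain like Rgs9, rose in WT by 0.43 ± 0.10. Of the 3 probe sets of Rgs9 only 1418691_at rose there (0.46 ± 0.10), while 1426033_at had 0.24 ± 0.12 and 1439635_at -0.14 ± 0.10. Of the chromosomal neighbours, Rgs13 had -0.04 ± 0.09 and Rgs8 -0.40 ± 0.13 in untreated KO, and Rgs18 had 0.37 ± 0.11 and -0.09 ± 0.11 in its 2 probe sets, with none called.

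Other steps of G protein signalling were counted from lists of genes. For each list below, the shares of all probe sets to read it against are 4.87% higher and 1.65% lower in untreated KO, 3.6% higher and 6.31% lower in the KO response, and 10.9% higher and 13.3% lower in the WT response. Among Gq and Gi coupled receptors 5 of 30 probe sets were higher (16.7%) and 1 lower in untreated KO kidneys, and 10 fell (33.3%) and 0 rose in the KO response. The 1 lower was that of Agtr1a, the targeted gene itself. S1pr1, a receptor for sphingosine 1-phosphate, had 0.68 ± 0.09 and -0.69 ± 0.09 in these comparisons, and the chemokine receptor Cxcr4 0.89 ± 0.14 and -1.02 ± 0.14 (adjusted p = 0.00107 to 0.00252 at baseline, limma). S1pr1 rose in WT by 0.44 ± 0.09. Receptor kinases and arrestins, which silence receptors directly, were higher in untreated KO in 5 of 15 probe sets (33.3%) and lower in 0. They included Grk5 at 0.73 ± 0.13 and Arrb2 at 0.54 ± 0.12. In the KO response 4 of the 15 fell, led by Grk3 (-1.18 ± 0.14) and Gprasp1 (-0.69 ± 0.09). Grk3 also fell in WT, by 0.63 ± 0.14. Gprasp1 was counted in this list but is neither a receptor kinase nor an arrestin.

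The alpha subunits moved in both directions. Of their 45 probe sets 2 were higher (4.44%) and 4 lower (8.89%) in untreated KO, and 3 rose (6.67%) and 3 fell (6.67%) in the KO response. The share higher at baseline and the share that fell were near those of all probe sets. Gnai2, a Gi subunit on which many RGS proteins act, was higher in untreated KO (0.42 ± 0.08) and fell by 0.49 ± 0.08 in the KO response. Gnai2 also fell in WT, by 0.34 ± 0.08. Gna14, of the Gq class, was lower in untreated KO by 1420385_at (-0.53 ± 0.10) and fell by 1.23 ± 0.10 in WT. Another probe set of Gna14, 1449848_at, rose by 0.54 ± 0.10 in the KO response. Among effectors 9 of 58 probe sets were higher (15.5%) and 0 lower in untreated KO, and 9 fell and 3 rose in the KO response. The adenylyl cyclase Adcy7 had 1.82 ± 0.16 and -1.67 ± 0.16, and phospholipase Plcb4 0.98 ± 0.14 and -1.16 ± 0.14.

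Markers of cell types and stress moved with the same arrays, and whole kidney RNA does not show whether a cell type was more frequent or held more of a transcript. Macrophage markers had a mean log2 ratio of 0.69 to 1.25 over 17 probe sets in the KO baseline arrays, -0.34 to 0.02 in WT baseline, -0.63 to -0.39 in WT ANG II and -0.13 to 0.31 in KO ANG II. In untreated KO 12 of the 17 were higher, among them C1qb (1.66 ± 0.19) and Ctss (1.71 ± 0.22), and 11 fell in the KO response. In WT 6 of the 17 fell with the infusion (35.3%, against 13.3% of all probe sets), where Rgs10 had 0.07 ± 0.11. Between the infused groups 10 of the 17 were higher in KO (58.8%, against 11.7% of all probe sets). Rgs10 had 0.22 ± 0.11 in that comparison. Immediate early genes, which respond to stimulation and tissue stress within minutes, had a mean log2 ratio of 0.37 to 0.55 in KO baseline arrays and of -0.16 to 0.11 in all others. Of their 42 probe sets 23 were higher and 0 lower in untreated KO, and 23 fell and 2 rose in the KO response, with Egr2 at 2.13 ± 0.21 in the first and Klf6 at -1.19 ± 0.10 in the second.

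Vascular markers moved the same way on average, by smaller values, and the arrays of smooth muscle, pericyte and mesangium markers overlapped between groups. Markers of smooth muscle, pericytes and mesangium had a mean log2 ratio of 0.08 to 0.36 in KO baseline arrays and of -0.13 to 0.14 in the others, with 4 of 25 probe sets higher in untreated KO (16.0%) and 5 falling in the KO response. Tagln (1.29 ± 0.27) and Des (0.52 ± 0.11) were among the first, and the pericyte genes Pdgfrb (-0.82 ± 0.23) and Abcc9 (-0.57 ± 0.11) among the second. In the difference of responses 0 of the 25 were called, against 5.7% of all probe sets higher and 4.08% lower. Other lists had calls in that difference. Lower in KO were 22 of 42 probe sets of immediate early genes, 3 of 9 of podocytes and 3 of 17 of macrophages, with 0 higher. Endothelium had 3 of 20 lower and 1 higher, and Gq and Gi coupled receptors 8 of 30 lower and 2 higher. Proximal tubule had 5 of 15 higher and 1 lower. For endothelium the mean was 0.16 to 0.22 in KO baseline and -0.17 to 0.05 elsewhere, with 3 of 20 probe sets higher. In the KO response 5 of the 20 fell, among them Vwf (-1.23 ± 0.19) and Plvap (-0.615 ± 0.129), and 1 rose, Kdr at 0.35 ± 0.08. Podocyte markers were at 0.16 to 0.40 in KO baseline against -0.22 to 0.12, with 4 of 9 higher in untreated KO. Lymphocyte markers, at -0.003 to 0.139 in KO baseline against -0.16 to 0.29 elsewhere, had 1 of 25 probe sets higher. Proximal tubule markers were at -0.15 to -0.11 against -0.08 to 0.17, with 0 of 15 higher and 3 lower. Distal nephron markers were at -0.03 to 0.13 against -0.12 to 0.16, with 0 of 13 called by limma (Pvalb was nearest, at -0.44 ± 0.13 and an adjusted p of 0.0526). The part of cell composition and of tissue stress in the RGS values was not tested. Ratios carry no absolute level, so it cannot be said whether any marker was near 0.

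**Figure D4:**
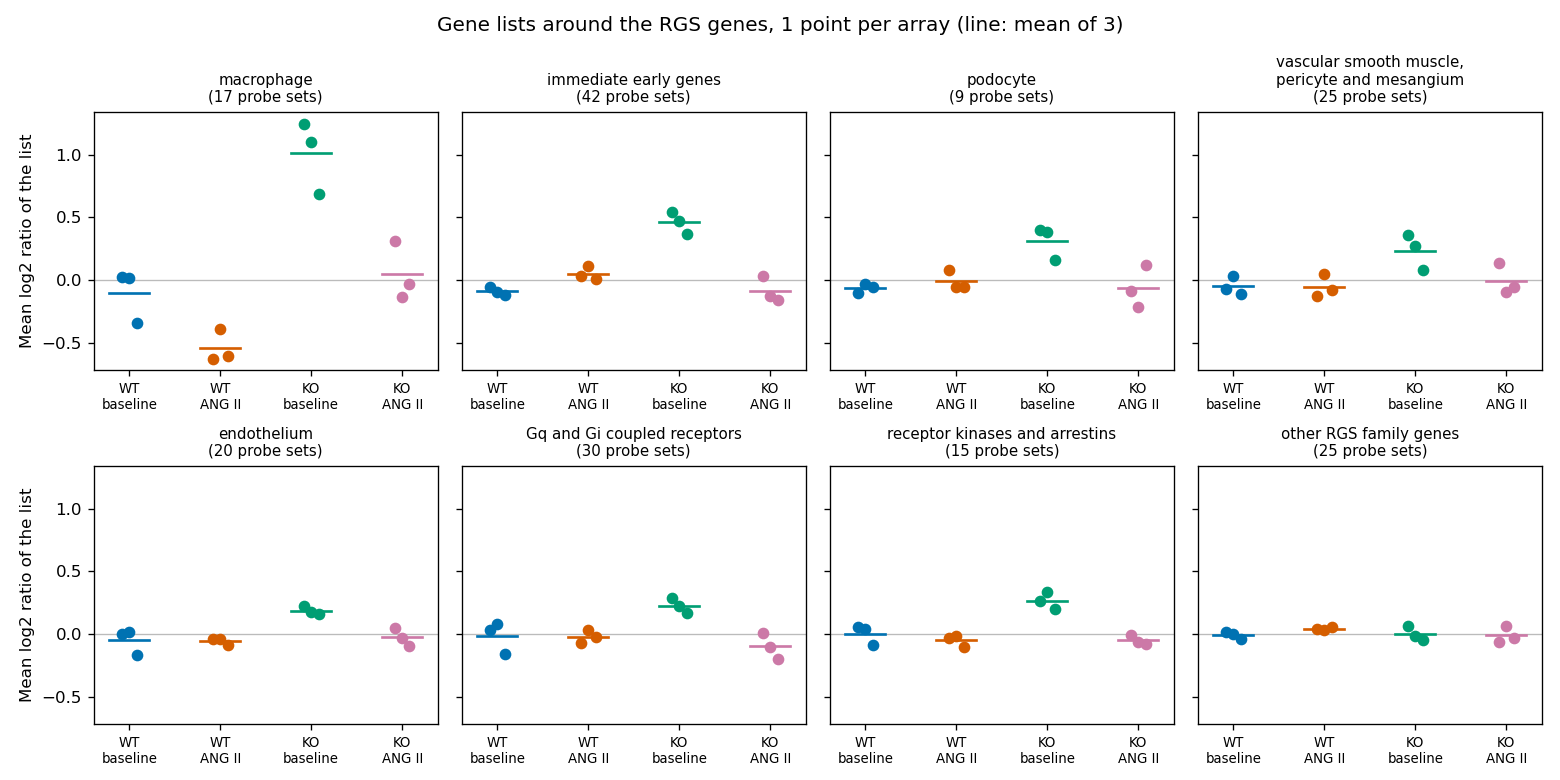
Mean log2 ratio over the probe sets of 8 gene lists (vertical) in the 4 groups (horizontal), with 1 point per array and a line at the mean of 3. KO baseline arrays lie above all others for macrophage markers (0.69 to 1.25) and immediate early genes (0.37 to 0.55). The same holds for podocyte (0.16 to 0.40) and endothelium markers (0.16 to 0.22). It also holds for Gq and Gi coupled receptors (0.17 to 0.29) and for receptor kinases and arrestins (0.20 to 0.33). Markers of smooth muscle, pericytes and mesangium overlap between groups. The mean of the other RGS family genes is -0.05 to 0.06 in KO baseline, over probe sets that moved in both directions.

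For each member the genes with the most similar profile were listed by Pearson's r over the 12 arrays, as a description, since the arrays fall into 4 groups and share any shift of a group. Profiles most like that of Rgs5 1417466_at were those of D17H6S56E-5 (r = 0.982), the nucleobase transporter gene Slc43a3 (0.977) and Enc1 (0.972). For Rgs10 they were the hyaluronan receptor Cd44 (0.981) and the matrix genes Mgp (0.971) and Dcn (0.963). For Rgs4 1416286_at the first was B4galnt1 (0.973), a ganglioside synthase, before Plec (0.964) and Apobec3 (0.963). For Rgs2 1419247_at it was Sh3bgrl3 (0.952), then Atp8a1 (0.936) and Pik3ip1 (0.935), an inhibitor of PI3 kinase.

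Likeness of profile did not mean likeness of size. In untreated KO kidneys Cd44 was higher by a log2 of 2.43 ± 0.20 and Mgp by 2.37 ± 0.23, where Rgs10 had 0.86, and D17H6S56E-5 was higher by 1.96 ± 0.16, where Rgs5 had 1.03. Others were close in size to their member, such as Apobec3 (0.75 ± 0.10) to Rgs4 1416286_at (0.73 ± 0.13) and Sh3bgrl3 (0.64 ± 0.11) to Rgs2 1419247_at (0.56 ± 0.11). Profiles most like Rgs3 1425296_a_at were those of Brpf3 (0.964), Usp9y (0.949) and 4933406K04Rik (0.946), and most like Rgs14 those of Btrc (0.957), Cplx4 (0.954) and Tsc1 (0.936). Rgs16 1426037_a_at was nearest to Hebp2 (0.945), Gabrp (0.928) and Cd44 (0.899, by another probe set), and Rgs1 to Gpc5 (0.890), Zeb1 (0.873) and Pcdhb22 (0.873).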

How the data were processed

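Total RNA of snap-frozen kidneys was hybridised to Affymetrix mouse arrays, 1 per mouse. The submitters' processing notes name RMA, with no version. The deposited values act as a linear ratio to the median of the same probe set over all 12 arrays. No label states that step, and it was inferred because row medians lay within 0.002 of 1 for 45099 of 45101 probe sets. From there, ratios were put on the log2 scale, 64 control probe sets were left out and 45037 probe sets were tested. Of these, 34945 carried 1 symbol of the platform annotation, 932 several and 9160 none.

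Group means were estimated jointly from the 12 arrays (R 4.3.3, limma 3.58.1), without a variance trend because ratios keep no intensity (8 residual and 5.83 prior degrees of freedom). There were 5 comparisons, with two-sided tests and Benjamini-Hochberg adjustment over all probe sets within a comparison. The procedure was tested on simulated data. No 2 arrays held identical values, and the number of arrays limits precision.

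Members and lists were chosen with earlier results of these data known. The text covers all 8 members, whose probe sets are given singly or by their range, Agtr1a, some of the 3 genes of smallest adjusted p in each list in the WT response, the KO response and the baseline comparison, and the 3 most similar profiles of each member by its plainest probe set. The chromosomal neighbours Rgs8, Rgs13 and Rgs18 were added for their position. A listed gene is given by the probe set of smallest p in the comparison. Lists are described by counts and medians, with no test of a list.

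Alternatives were a variance trend, a fit to the groups compared alone, quantile normalization again, median centring, array weights, blocking on the replicate number, leaving out the probe sets of lowest spread, averaging probe sets by gene, and leaving out each array. Same-numbered WT arrays deviated from their group means together (r = 0.186, 0.183 and 0.128 for baseline and ANG II), which meets the criterion for pairing in the WT response. In the other comparisons r ran from -0.157 to 0.100. The block was fitted to all 12 arrays together.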

Additional observations from a re-analysis of the deposited data

Results flagged for a closer look

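The responses to ANG II differed between the genotypes, by the difference of the log2 changes in the limma fit, in 9 of the 21 RGS probe sets. The KO response minus the WT response was -1.09 for Rgs5 1417466_at, -0.89 for Rgs5 1420941_at, -0.84 for Rgs5 1420940_x_at and -0.77 for Rgs5 1420942_s_at. For Rgs2 it was -0.89 by 1447830_s_at, -0.83 by 1419247_at and -0.82 by 1419248_at. Rgs4 1416286_at differed by -0.86 and Rgs10 1416882_at by -0.64. In each of the 9 the KO baseline arrays were the highest of the 12, so the untreated KO kidneys enter every one of these differences.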

How the results depend on the processing

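Of the 31 calls over the 5 comparisons 21 held under every alternative that could be run, 10 were lost under at least 1, and 0 changed direction. Of the 74 values that were not called, 17 passed the threshold under some alternative and 27 changed sign under some. With averaging by gene, each probe set was counted by the mean of its gene, so several of these changes are those of the mean. Rgs2 1443250_at in the KO response, for example, had -0.06 by itself and was counted as passing through the mean of -0.50. The calls of Rgs4 1416286_at likewise ended only with that averaging. Probe sets of low spread gave no value where the filter removed them, and a fit to 2 groups cannot give the difference of responses. The count of members called in the WT response, 3 in the fit to all arrays, was 0 with only the 2 groups compared, 0 with quantile normalization and 1 with arrays centred on a common median. Under ANG II the count for KO against WT, 1 in the fit to all arrays, was 0 with only the 2 groups and 0 with quantile normalization. Without the probe sets of lowest spread it was 0 because that filter removed the called probe set, Rgs3 1454026_a_at. With probe sets averaged by gene, 3 of 8 genes (Rgs2, Rgs5 and Rgs10) were called in the KO response, 3 in the difference of responses and 3 at baseline, against 9 of 21 probe sets each, and 12.8%, 13% and 8.07% of all 18193 genes were called in that fit. With single arrays left out, the counts ran from 0 to 3 in the WT response, 9 to 9 in the KO response, 7 to 10 for the difference, 8 to 10 at baseline and 0 to 3 under ANG II. With the replicate number as a block, the counts were 4, 9, 9, 9 and 1 for the WT response, the KO response, the difference, baseline and ANG II, and no call changed other than that of Rgs5 1417466_at in the WT response. Ratios hold no signal over background, so weakly expressed members are not marked as such.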
